A study of Mus musculus with 6 samples.

Results

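The integrins and the core of the focal adhesion were described in the *Clk4*-cKO mouse heart after delivery of 2 forms of nexilin (NEXN). The members were every integrin alpha or beta chain gene that the array names, taken by symbol, with 11 genes of the adhesion core (*Tln1*, *Tln2*, *Vcl*, *Ilk*, *Parva*, *Parvb*, *Pxn*, *Ptk2*, *Fermt2*, *Zyx* and *Lims1*). They came to 38 genes of the 27307 gene symbols on the array, made up of 18 alpha chains, 9 beta chains and the 11 core genes, with 91 of 56605 probes. Binding partners of integrins with similar symbols were left out. The rule uses no measured value, but the set was chosen with earlier results of these data known.

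Integrins are receptors made of 1 alpha and 1 beta chain that span the cell membrane. Outside the cell they hold matrix proteins or receptors on other cells, and inside it talin and kindlin bind the beta tail and connect it to actin. Vinculin strengthens that connection, ILK with PINCH and parvin forms a scaffold on the beta tail, and focal adhesion kinase, paxillin and zyxin carry signals and sense tension. In heart muscle these proteins sit in the costameres, which tie the Z-discs of the outer myofibrils to the basement membrane, while fibroblasts and immune cells carry other sets of integrin chains.

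The hearts came from male C57BL/6J mice carrying *Clk4* fl/fl and the α-MHC-MerCreMer transgene, in which tamoxifen at 6 to 8 weeks of age removes *Clk4*, a CDC-like kinase, from cardiomyocytes. Mice had received an intravenous AAV9 vector at 5 weeks of age that carried either wild-type mouse *Nexn* (AAV NEXN-WT, 3 arrays) or *Nexn* with the phosphorylation-mimic change S437E (AAV NEXN-S437E, 3 arrays). The *Clk4* deletion and an overexpressed NEXN were thus common to the groups, the CMV promoter of the vector is not limited to cardiomyocytes, and no untreated or *Clk4*-intact heart was analysed here. The cardiac phenotype of such mice was examined 3 weeks after tamoxifen was begun, and the age at sampling was not stated for the arrays themselves. RNA of the whole myocardium was labelled with Cy3 and hybridised to 1 Agilent mouse array per sample. The comparison asks what the phosphorylation-mimic NEXN changed relative to wild-type NEXN when *Clk4* is missing.

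All 6 arrays lay on 1 slide, and between 41.9% and 47.8% of their spots were well above background. The 2 *Nexn* probes read 2.39 to 3.89 across the arrays with no difference between groups at an unadjusted p of 0.05, and the probe of *Clk4* that was detected on all arrays read 1.12 to 1.63. These probes were not placed relative to the deleted exons or the vector, so they check neither label. The NEXN-WT 1 array lay farthest from its own group over the member probes, at a mean absolute log2 difference of 0.448 against 0.287 to 0.386 for the others. Slide row 1 held 4 arrays, the 3 NEXN-WT arrays and NEXN-S437E 1, and row 2 the remaining 2, so with slide row as a block a comparison rests on NEXN-S437E 1 against NEXN-WT.

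Values are log2 processed signals relative to each array's 75th percentile, so a value of 0 is the signal that 75% of spots do not exceed, and a level describes its own probe and is not set against other probes. Of the 91 member probes, 50 probes of 34 genes were tested, being detected (well above background) in every array of 1 group or the other. Of the other 41 probes, 34 were detected on no array and 7 on some. *Itga2*, *Itga2b*, *Itgad* and *Itgb2l*, chains of the collagen receptor of platelets, the platelet fibrinogen receptor and 2 myeloid integrins, had no tested probe. Among the tested probes 8 were not above background on all 6 arrays, and 6 of these passed through the NEXN-WT group alone.

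In NEXN-S437E hearts 9 integrin probes were lower and 2 were higher, and no probe of the adhesion core passed an unadjusted p of 0.05 in the main processing. At an unadjusted p under 0.05 (limma), the lower ones were 18% of the 50 tested member probes and the higher ones 4%, against 6.7% and 10.5% of all 22998 tested probes. Past the study's threshold of a 2-fold change with that p, 3 member probes (*Itgb7*, *Itga11* and *Itgax*) were lower and none was higher, against 1.78% and 0.735% of all tested probes. No member passed a Benjamini-Hochberg adjusted p of 0.05, which 0.161% of all tested probes did, and the smallest adjusted p of a member was 0.0599 (limma, *Itgb7*). All of the 11 probes at an unadjusted p under 0.05 were integrin probes, 9 of 32 lower (28.1%) and 2 of 32 higher (6.25%), and none was among the 18 core probes. The groups did not overlap for 9 member probes in the lower direction (18%, against 9.17% of all tested probes) and 4 in the higher (8%, against 18.7%). *Itgax*, *Itgal* and *Itgb8* are among the probes that passed through the NEXN-WT group alone. Over the 42 probes detected on all 6 arrays, 6 were lower (14.3%) and 2 higher (4.76%), where 5.99% and 11.6% of all such probes were. The median difference was -0.09 over the member probes and 0.09 over all tested probes. Below, a gene is said to have fallen or risen where its unadjusted p was under 0.05.

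**Figure D1:**
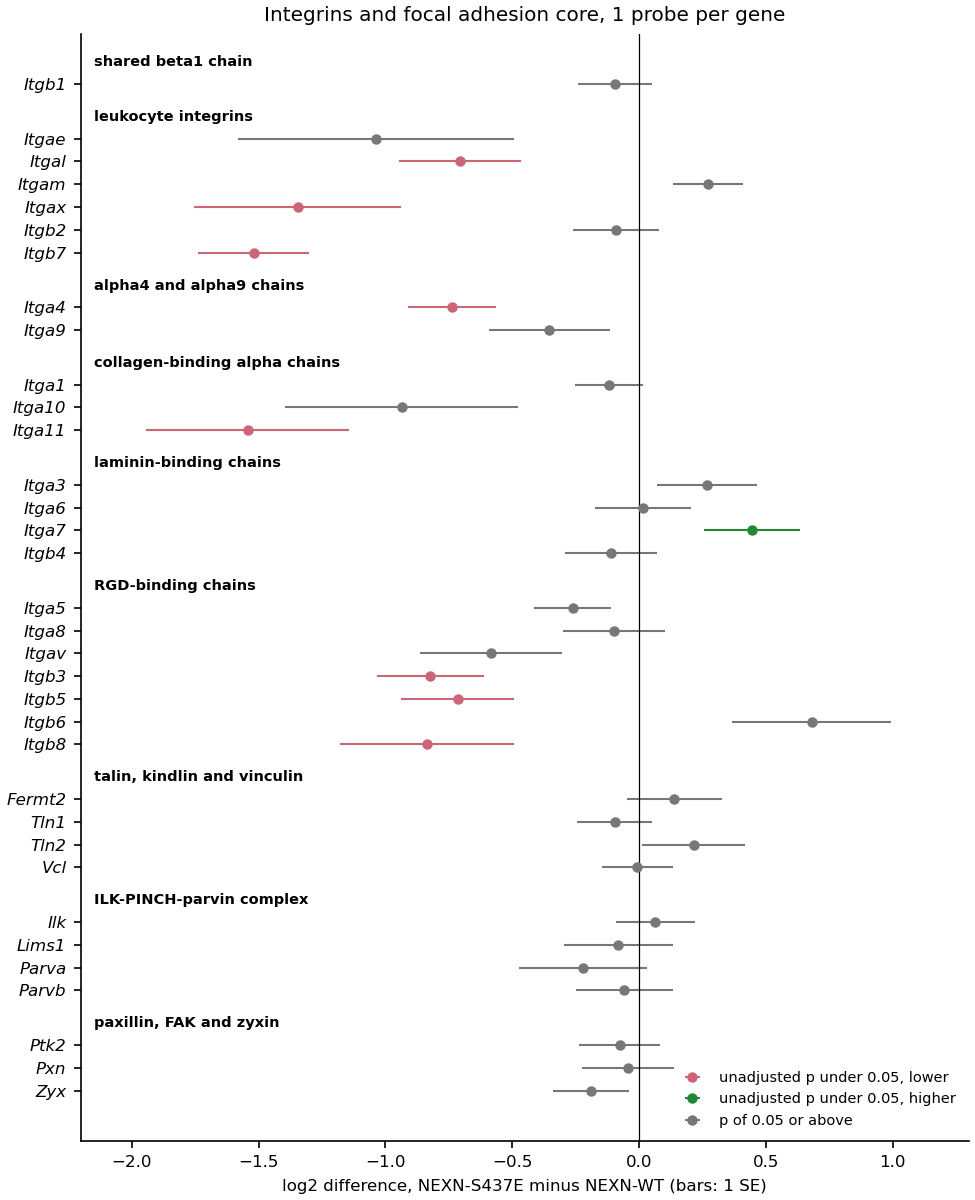
Log2 difference between the groups (horizontal axis, NEXN-S437E minus NEXN-WT, bars 1 SE, n = 3 arrays a group) for the 34 member genes with a tested probe, 1 probe per gene, ordered by role. Of the 23 integrin genes 8 lie below 0 at an unadjusted p under 0.05 and *Itga7* lies above, and the 11 core genes lie between -0.22 and 0.22.

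The beta1 chain is the partner of most matrix-binding alpha chains, and heart muscle replaces its common splice form, beta1A, with beta1D, whose tail binds talin more tightly. The array holds 3 probes for *Itgb1* on chromosome 8 (mm9, plus strand). The probe in which the array annotation names beta1D mRNA spans an intron (131250931 to 131255949), and a probe for the common tail spans another (131250081 to 131255976). The start of the former lies 850 bases after the start of the latter, inside its span. The letters are shown because they tell the splice forms apart. Capitals in the beta1D probe, of which the first 27 of 60 bases are given, mark its early stop codon, and capitals in the beta1A probe mark the 2 codon runs for the tyrosine motifs that talin and kindlin bind.
Itgb1 beta1D: aactatggacgtaaagctggtctcTGA
Itgb1 beta1A: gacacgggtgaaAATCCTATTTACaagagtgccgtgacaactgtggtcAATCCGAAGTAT

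These probes share a run of 23 bases after the stop codon of beta1D, and cross-hybridisation was not tested. The beta1D probe read 0.72, 0.74 and 0.74 in NEXN-WT 1, 2 and 3 and 0.90, 0.85 and 1.08 in NEXN-S437E 1, 2 and 3. All NEXN-S437E arrays lay above all NEXN-WT arrays, yet the difference of 0.21 ± 0.14 (SE) did not pass (adjusted p = 0.45, limma), although it passed an unadjusted p of 0.05 with the methods' t-test, the test that the study names. The beta1A probe, named after its values were seen, read 3.07, 2.60 and 2.72 against 2.50, 2.45 and 2.59. Here all NEXN-S437E arrays lay below, by as little as 2.60 against 2.59, with a difference of -0.28 ± 0.16 (adjusted p = 0.39, limma) that was -0.15 without NEXN-WT 1 and passed (-0.40) after normexp background correction, a model with an offset of 50 that draws dim probes together. A probe further downstream (131257001 to 131257060), annotated to the *Itgb1* mRNA and to no single splice form, differed by -0.09 ± 0.15.

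Within each array the beta1D probe minus the beta1A probe was -2.34, -1.86 and -1.98 in NEXN-WT hearts and -1.60, -1.60 and -1.51 in NEXN-S437E hearts. The groups did not overlap, and the shift of 0.49 toward beta1D had an exact permutation p of 0.1 (two-sided), the smallest that 3 against 3 arrays allow. Without NEXN-WT 1 the shift was 0.35, and over all settings run it stayed between 0.35 and 0.59. The shift was chosen for description after the values were seen. The summed cardiomyocyte markers moved the same way, with a linear sum of 1518 to 1965 in NEXN-WT and 2345 to 2447 in NEXN-S437E hearts. Of these markers 3 of 7 (*Myh6*, *Tnni3* and *Tnnt2*) rose, against 10.5% of all tested probes. Without NEXN-WT 1 the markers that rose were *Myh6*, *Tnni3* and *Myl2*, and *Tnnt2* no longer passed. In whole tissue, fewer cells of a type and less RNA per cell cannot be told apart, and the part of cell makeup in this shift was not tested.

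**Figure D2:**
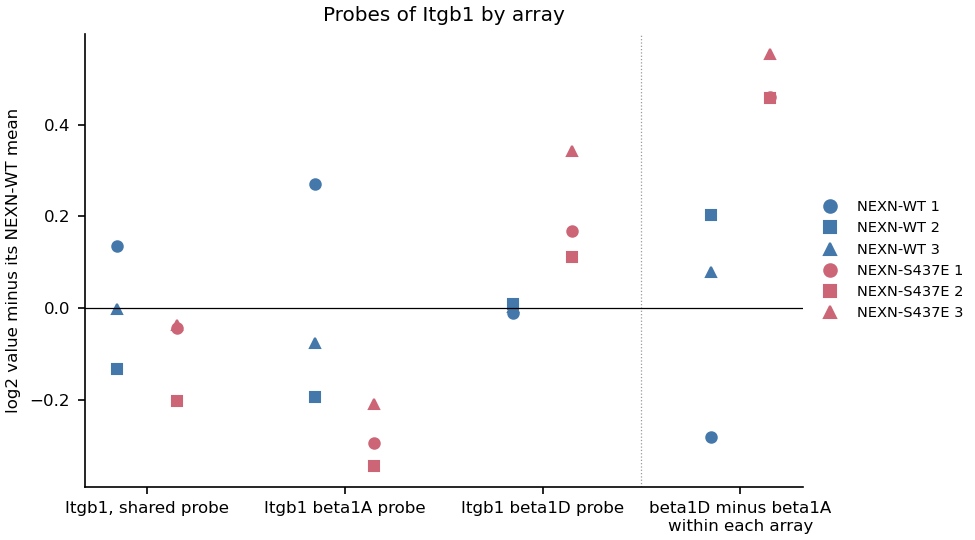
The 3 *Itgb1* probes and the beta1D minus beta1A difference on each array (vertical axis, log2 value minus the mean of the 3 NEXN-WT arrays). The NEXN-S437E arrays lie below for the beta1A probe and above for the beta1D probe, and the within-array difference is 0.49 higher without overlap.

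Of the 6 tested leukocyte chains 3 fell (50%, against 6.7% of all tested probes). *Itgax* and *Itgal*, which fell, and *Itgae* were tested through the NEXN-WT group alone, so the filter can raise this share. Of the chains detected on all 6 arrays (*Itgb7*, *Itgb2* and *Itgam*) only *Itgb7* fell, where 5.99% of all such probes did. Beta7 pairs with alpha4 and alphaE on gut-homing and tissue-resident lymphocytes, and *Itgb7* showed the smallest p of all members. Its probe lies on chromosome 15 (mm9, 102046450 to 102046509, minus strand), and its first 30 of 60 bases are given to identify it.
Itgb7: atttttcagagtgaccttcagagggcagca

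It read -0.76, -1.29 and -1.37 in NEXN-WT and -2.43, -2.58 and -2.97 in NEXN-S437E hearts. Every NEXN-S437E array was below every NEXN-WT array, by 2.87-fold on average (-1.52 ± 0.22, adjusted p = 0.0599, limma). The probe stayed lower at an unadjusted p under 0.05 in all 17 settings run, although normexp correction took the difference to -0.38, under 2-fold.

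*Itgax* encodes alphaX (CD11c), the chain of dendritic cells and some macrophages. Its tested probe (chromosome 7, mm9, 135294052 to 135294111, plus strand) starts as follows.
Itgax: tcccatctacttttgcaacgttggaattga

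It read -1.47, -2.33 and -2.41 in NEXN-WT and -2.54, -4.08 and -3.63 in NEXN-S437E hearts, and no array of the latter group detected it. The groups did not overlap, and *Itgax* was at least 2.03-fold lower against the detection limit (-1.34 ± 0.41 as measured, adjusted p = 0.19, limma). The measured difference was -0.47 (adjusted p = 0.62, limma) with slide row as a block and -0.13 (adjusted p = 0.61, limma) after normexp correction, and the methods' t-test did not call it.

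*Itgal* encodes alphaL of LFA-1, the main integrin of T cells. It read -3.48, -3.06 and -2.76 in NEXN-WT and -3.96, -3.41 and -4.04 in NEXN-S437E hearts, so that the groups overlapped. It was at least 1.102-fold lower (-0.71 ± 0.24 as measured, adjusted p = 0.22, limma), and no NEXN-S437E array detected it. Leaving out NEXN-WT 2, NEXN-WT 3, NEXN-S437E 1 or NEXN-S437E 3 ended the call, with differences of -0.54 to -0.69, as did the methods' t-test, and after normexp correction the sign turned (0.12). *Itgae*, the alphaE partner of beta7 on intraepithelial and resident T cells, read -2.01, -2.84 and -2.78 against -4.96, -2.72 and -3.07. The NEXN-S437E 1 array alone was far below the others, and the difference of -1.04 ± 0.54 did not pass (adjusted p = 0.35, limma). It passed 2-fold and an unadjusted p of 0.05 with slide row as a block, which rests on that array (-2.42, adjusted p = 0.12, limma), and without NEXN-S437E 2 (-1.47, adjusted p = 0.44, limma).

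*Itgb2*, the beta2 chain shared by all LFA-1, Mac-1 and CD11c receptors, read -0.25, -0.20 and -0.03 in NEXN-WT and 0.00, -0.27 and -0.49 in NEXN-S437E hearts, a difference of -0.09 ± 0.17 with a 95% interval of -0.48 to 0.30 that did not pass. Its difference from the alpha chains was not tested. *Itgam*, the Mac-1 alpha chain of macrophages, monocytes and neutrophils, read 2.23, 2.16 and 2.08 against 2.47, 2.47 and 2.34. All NEXN-S437E arrays lay above all NEXN-WT arrays, and the difference of 0.27 ± 0.14 (95% interval -0.04 to 0.59) did not pass (adjusted p = 0.34, limma). It passed an unadjusted p of 0.05 with the methods' t-test and without NEXN-WT 1 (0.31, adjusted p = 0.35, limma). The 6 tested leukocyte chains ran from -1.52 to 0.27 with a median of -0.87. This median was -0.49 without NEXN-S437E 1 and -0.044 after normexp correction, and it turned to 0.32 without a filter on dim probes, where undetected probes enter. Over only the chains detected on all 6 arrays (*Itgb7*, *Itgb2* and *Itgam*) the median was -0.09.

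Of the marker lists of immune cells, those of T, NK, dendritic and B cells held most of the genes that fell. For the counts that follow, 6.7% of all tested probes fell. T cell markers fell in 5 of 5 genes, and their linear sum was 2.45 to 3.81 in NEXN-WT and 0.883 to 1.21 in NEXN-S437E hearts. NK and cytotoxic markers fell in 4 of 4 tested genes (1.54 to 4.64 against 0.707 to 0.824, with *Prf1* detected on no array). Dendritic cell markers fell in 2 of 3 tested genes (*Cd209a* and *H2-Ab1*), while *Zbtb46* differed by -0.09, and *Xcr1* was detected on no array. Their summed level, nearly all *H2-Ab1*, was 51.5 to 65.5 against 38.2 to 44.9. B and plasma cell markers fell in 2 of 2 tested genes (0.910 to 1.16 against 0.496 to 0.543, with *Cd79a* and *Ms4a1* detected on no array). Macrophage markers passed in 0 of 7 genes (110 to 130 against 119 to 129) and neutrophil markers in 0 of 3 (30.1 to 36.8 against 34.2 to 42.7). Of the 5 pan-leukocyte markers *Cd52* fell (summed level 10.5 to 17.3 against 8.93 to 11.1), and none did without NEXN-WT 1. Of these markers *Cd3g*, *Klrd1*, *Gzmb*, *Jchain* and *Cd209a* were tested through the NEXN-WT group alone. Over genes detected on all 6 arrays the counts that fell were 4 of 4 for T cells, 2 of 2 for NK and cytotoxic cells, 1 of 2 for dendritic cells and 1 of 1 for B and plasma cells, where 5.99% of all such probes fell. Their part in the integrin differences was not tested. The counter-receptors that leukocyte integrins hold on other cells (*Icam1*, *Icam2*, *Vcam1*, *F11r*, *Jam2* and *Jam3*) passed in 0 of 6 tested genes, from -0.24 to 0.43, and *Madcam1* and *Cdh1*, ligands of beta7 receptors, were detected on no array.

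**Figure D3:**
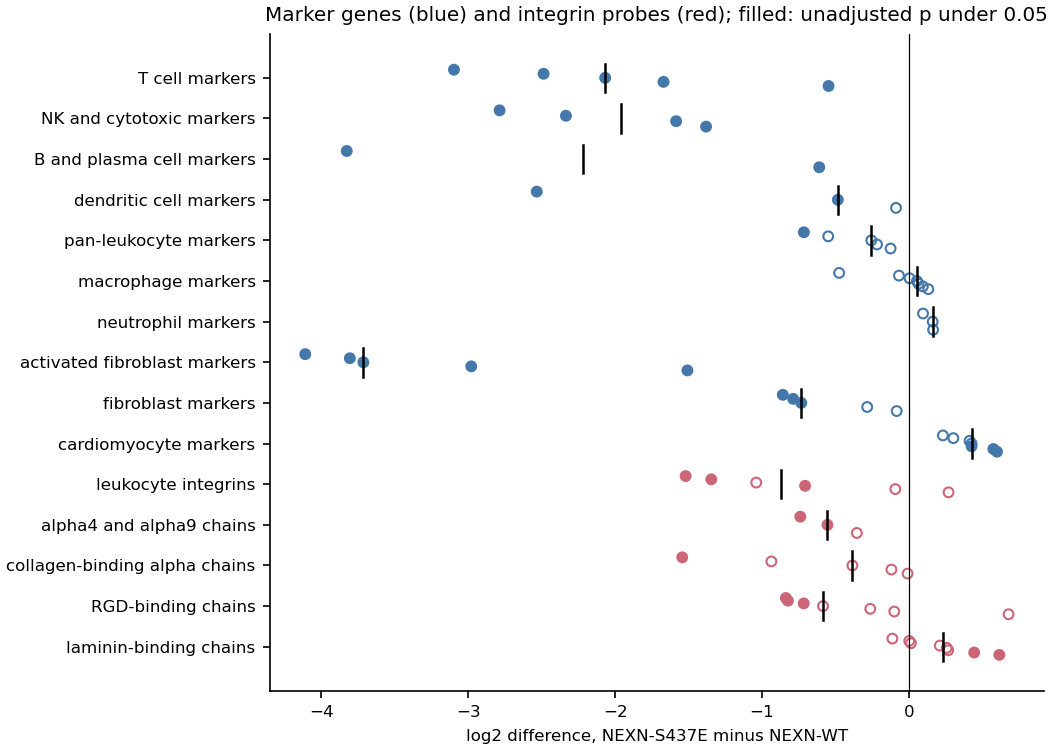
Log2 difference (horizontal axis, NEXN-S437E minus NEXN-WT) of the tested genes of 10 marker lists (blue) and of the tested probes of 5 groups of integrin chains (red), with filled points at an unadjusted p under 0.05 and bars at the medians. The medians of T cell, NK and activated fibroblast markers were -2.07, -1.96 and -3.71, and those of macrophage and neutrophil markers 0.06 and 0.16. The T cell marker *Cd3e* (-0.55) lay close to the macrophage marker *Adgre1* (-0.47). The leukocyte integrins spread from -1.52 to 0.27.

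The alpha4 and alpha9 chains, close relatives that bind VCAM-1, fibronectin variants, osteopontin and tenascin-C, had 3 tested probes, all with differences below 0 (39.2% of all tested probes), of which 2 fell (6.7% of all tested probes). *Itga4* read -0.73, -0.86 and -0.93 in NEXN-WT and -1.28, -1.69 and -1.77 in NEXN-S437E hearts. It fell without overlap by 1.67-fold (-0.74 ± 0.17, adjusted p = 0.13, limma). With slide row as a block it was -0.44 (adjusted p = 0.51, limma), and after normexp correction it was -0.20 (adjusted p = 0.36, limma).

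*Itga9* was measured by 2 probes on chromosome 9 (mm9, plus strand). The brighter probe (118807900 to 118807959) differed by -0.35 ± 0.24 (adjusted p = 0.45, limma), and passed an unadjusted p of 0.05 after normexp correction (-0.46) and without NEXN-WT 2 (-0.60). The dimmer probe crosses an intron (118796991 to 118806400) and is shown because capitals mark codons of the motif next to the membrane that integrin alpha tails share.
Itga9: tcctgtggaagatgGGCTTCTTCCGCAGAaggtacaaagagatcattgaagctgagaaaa

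This probe, named after its values were seen, read -1.85, -1.95 and -1.98 in NEXN-WT and -2.51, -2.45 and -2.48 in NEXN-S437E hearts. It had the narrowest spread of the probes that fell (SD 0.07 and 0.03, n = 3) and a difference of -0.55 ± 0.13 (adjusted p = 0.13, limma). The difference stayed past an unadjusted p of 0.05 with each array left out and with slide row as a block (-0.59, adjusted p = 0.40, limma), and was -0.08 after normexp correction.

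Of 5 tested probes of collagen-binding alpha chains, 1 fell, that of *Itga11* (20%, against 6.7% of all tested probes). Alpha11 is the collagen receptor of fibroblasts and myofibroblasts, and its probe (chromosome 9, mm9, 62631667 to 62631726, plus strand) starts as follows.
Itga11: gtttcatctgaacaatgtcatctgttcccc

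It read 3.91, 2.35 and 2.39 in NEXN-WT and 1.63, 1.15 and 1.25 in NEXN-S437E hearts. The NEXN-WT 1 array was 1 log2 unit or more above every other array, and the groups did not overlap. The difference was 2.91-fold (-1.54 ± 0.40, adjusted p = 0.15, limma), -1.03 (adjusted p = 0.084, limma) without NEXN-WT 1, and -1.26 (adjusted p = 0.52, limma) with slide row as a block.

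*Itga1*, the collagen receptor of smooth muscle, endothelium and fibroblasts, read 1.18, 1.16 and 1.19 in NEXN-WT and 1.17, 1.01 and 1.00 in NEXN-S437E hearts on its brightest probe (-0.12 ± 0.13, 95% interval -0.43 to 0.19). Its other tested probes differed by -0.01 and -0.38, the latter going from 0.05 without NEXN-S437E 1 to -0.90 without NEXN-S437E 3, where it passed an unadjusted p of 0.05. *Itga10*, known from cartilage, read -2.13, -2.68 and -2.82 against -4.65, -2.98 and -2.82. Only NEXN-S437E 1 was clearly lower, and the difference of -0.94 ± 0.46 did not pass (adjusted p = 0.33, limma). It passed 2-fold and an unadjusted p of 0.05 with slide row as a block (-2.10, adjusted p = 0.11, limma), without NEXN-S437E 2 (-1.19) and without NEXN-S437E 3 (-1.27). The dimmest tested *Itga1* probe did so with slide row as a block (-1.25, adjusted p = 0.47, limma).

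Activated fibroblast markers fell in 5 of 5 genes (*Cilp*, *Comp*, *Cthrc1*, *Meox1* and *Postn*), where 6.7% of all tested probes fell. Their linear sum was 34.1 to 180 in NEXN-WT and 7.57 to 8.28 in NEXN-S437E hearts. The 180 was NEXN-WT 1, and the NEXN-WT mean of 84.4 was 36.7 without it. General fibroblast markers fell in 3 of 5 genes (*Dpt*, *Lum* and *Pdgfra*). The sums, mostly *Dcn*, which differed by -0.08, overlapped at 367 to 466 and 351 to 379. Without NEXN-WT 1 the counts were 5 and 2, and *Cthrc1* was tested through the NEXN-WT group alone. The part of fibroblast number or state in *Itga11* was not tested.

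The chains that bind the RGD tripeptide of fibronectin, vitronectin and latent TGF-beta fell in 3 of 7 tested genes (42.9%), against 6.7% of all tested probes. Of these *Itgb8* was tested through the NEXN-WT group alone, so the filter can raise this share. Among the genes detected on all 6 arrays only *Itgb3* and *Itgb5* fell, where 5.99% of all such probes did. The differences of the 7 tested genes were below 0 in 6, against 39.2% of all tested probes, and had a median of -0.58. The median was -0.32 without NEXN-WT 1 and -0.42 over the genes detected on all 6 arrays, which leaves out *Itgb8*. It was -0.13 after normexp correction and turned to 0.092 without a filter on dim probes. *Itgb3*, the beta chain of the vitronectin receptor and of the platelet fibrinogen receptor, read 0.97, 0.61 and 0.31 in NEXN-WT and -0.01, -0.46 and -0.11 in NEXN-S437E hearts. The groups did not overlap (-0.82 ± 0.21, 1.77-fold, adjusted p = 0.15, limma). Platelet markers rose in 2 of 2 tested genes (*Pf4* and *Ppbp*), where 10.5% of all tested probes rose, and none passed without NEXN-WT 1. Their summed level, mostly *Pf4*, was 20.3 to 30.03 against 32.1 to 34.0. *Gp1bb* and *Gp5* were detected on no array and *Gp9* on 1. The part of platelets in *Itgb3* was not tested.

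*Itgb5*, which pairs with alphaV in fibroblasts and endothelium, read 5.65, 4.95 and 4.89 in NEXN-WT and 4.58, 4.37 and 4.39 in NEXN-S437E hearts. It fell without overlap (-0.72 ± 0.22, 1.64-fold, adjusted p = 0.20, limma), and the difference was -0.47 (adjusted p = 0.22, limma) without NEXN-WT 1. *Itgb8*, which activates TGF-beta with alphaV, read -1.93, -3.30 and -2.76 against -3.09, -3.64 and -3.77, with overlap and without detection in the NEXN-S437E group. It was at least 1.52-fold lower (-0.84 ± 0.34 as measured, adjusted p = 0.27, limma). This call was lost in 8 of 16 settings: after normexp correction (-0.06), with slide row as a block, without a filter on dim probes, with the methods' t-test, and without NEXN-WT 1 (-0.47), NEXN-WT 3, NEXN-S437E 2 or NEXN-S437E 3.

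With slide row as a block *Itgb3* was -0.64 (adjusted p = 0.52, limma), *Itgb5* was -0.58 (adjusted p = 0.54, limma) and *Itgb8* was -0.43 (adjusted p = 0.69, limma). The alphaV chain itself, *Itgav*, read 3.99, 3.00 and 2.93 in NEXN-WT and 2.65, 2.65 and 2.88 in NEXN-S437E hearts. The groups did not overlap, but NEXN-WT 1 carried much of the difference, which was -0.58 ± 0.28 (adjusted p = 0.32, limma) with it and -0.24 without. It passed an unadjusted p of 0.05 after normexp correction (-0.68) and without NEXN-WT 3 (-0.77). *Itga5*, the fibronectin receptor chain, differed by -0.26 ± 0.15 (95% interval -0.62 to 0.09), passing with the percentile over detected probes (-0.37), and *Itga8*, a chain of fibroblast-like and smooth muscle cells, by -0.10 ± 0.20. *Itgb6*, an epithelial chain, differed by 0.68 ± 0.31 (adjusted p = 0.31, limma) by 0.29 without NEXN-WT 1, and by 0.92, past an unadjusted p of 0.05, without NEXN-WT 2, with values of -2.66, -1.40 and -1.60 against -1.12, -1.09 and -1.41. Its NEXN-WT 1 array was the lowest and the groups overlapped.

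Of 12 listed genes for matrix proteins that RGD, alpha4 and alpha9 receptors bind, 9 were tested and 5 (55.6%, against 6.7% of all tested probes) fell (*Postn*, *Thbs1*, *Fn1*, *Fbln5* and *Emilin1*), 3 of them by 2-fold or more, and none rose. Fibronectin (*Fn1*) differed by -1.34 ± 0.35 (adjusted p = 0.15, limma) and thrombospondin-1 (*Thbs1*) by -1.47 ± 0.56 (adjusted p = 0.25, limma). Without NEXN-WT 1 these were -0.90 and -0.74, and 5 of the 9 still fell. Osteopontin (*Spp1*) differed by -1.80 ± 0.94 (adjusted p = 0.35, limma) and by -0.63 without NEXN-WT 1. Its probe read 1.12, -2.85 and -1.91 in NEXN-WT and -2.57, -4.05 and -2.41 in NEXN-S437E hearts, so that NEXN-WT 1 alone was far above the others. Vitronectin (*Vtn*) differed by 0.10, *Vwf* by 0.21 and *Mfge8* by -0.03, none of which passed, and *Tnc* was not tested.

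**Figure D4:**
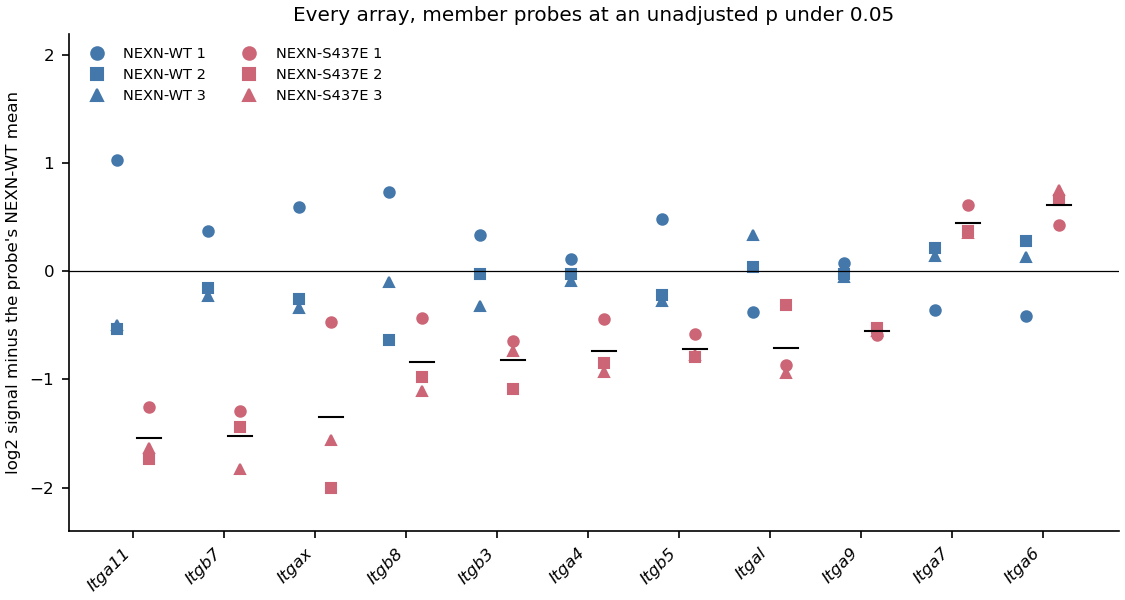
The 11 member probes at an unadjusted p under 0.05 on each array (vertical axis, log2 signal minus the mean of the probe's 3 NEXN-WT arrays, short bars the NEXN-S437E means). NEXN-WT 1 is the highest array for 8 of the 9 lower probes, all but *Itgal*, and the groups overlap for *Itgb8* and *Itgal*.

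Of the 8 tested probes of laminin-binding chains, 6 of which belong to *Itga6* or *Itga7*, 2 rose (25%, against 10.5% of all tested probes). Their differences were above 0 in 7 of 8 and had a median of 0.24, where 60.8% of all tested probes were above 0 and their median was 0.09. Without NEXN-WT 1 the medians were 0.07 and 0.05. Alpha7 with beta1D is the laminin receptor of mature heart and skeletal muscle. *Itga7* read 4.80, 5.37 and 5.29 in NEXN-WT and 5.77, 5.52 and 5.51 in NEXN-S437E hearts, without overlap (0.45 ± 0.19, 1.36-fold, adjusted p = 0.28, limma). The call was lost in 12 of 17 settings, where the difference ran from 0.24 (normexp correction) to 0.61 (slide row as a block), with 0.27 after quantile normalization and without NEXN-WT 1. It was the same 0.45 without a filter on dim probes, with the methods' t-test and with the replicate block. A dimmer *Itga7* probe differed by 0.26 ± 0.25, and by -0.03 without NEXN-WT 1. The 3 cardiomyocyte markers that rose differed by 0.43 to 0.60, with *Myh6* at 0.47, *Tnni3* at 0.33 and *Tnnt2* at 0.37 without NEXN-WT 1, and the part of cell makeup in *Itga7* was not tested.

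*Itga6*, the laminin receptor chain of endothelium and other cells, gave different answers by probe (chromosome 2, mm9, plus strand). The probe of highest mean (71694756 to 71694815) differed by 0.02 ± 0.19, a probe further downstream (71696151 to 71696210) by 0.00 ± 0.15, and a dim probe (71692909 to 71692968) by 0.21 ± 0.24. The most upstream tested probe (71690633 to 71690692), annotated to another transcript model than the probes of the main mRNA and named after its values were seen, read 4.93, 5.62 and 5.47 in NEXN-WT and 5.77, 6.00 and 6.09 in NEXN-S437E hearts. It rose without overlap (0.62 ± 0.21, adjusted p = 0.22, limma), and the call was lost in 6 settings. These were quantile normalization (0.41), the authors' normalized values (0.39), slide row as a block (0.43), the methods' t-test, and leaving out NEXN-S437E 2 (0.59) or NEXN-S437E 3 (0.55). Within each array this probe minus the downstream probe was 0.65, 1.56 and 1.24 in NEXN-WT and 1.44, 1.95 and 1.91 in NEXN-S437E hearts, which overlapped (exact permutation p = 0.2, two-sided). *Itga3*, an epithelial laminin receptor, differed by 0.27 ± 0.20, and *Itgb4*, the hemidesmosome chain that pairs with alpha6, by -0.11 ± 0.18. Endothelial markers passed in 0 of 5 genes, as did smooth muscle and pericyte markers.

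None of the 18 probes of the focal adhesion core reached an unadjusted p of 0.05 in the main processing, and none separated the groups. After normexp correction *Tln1* (-0.29, adjusted p = 0.25, limma), the brighter *Zyx* probe (-0.37, adjusted p = 0.25, limma) and the dimmer *Vcl* probe (0.32, adjusted p = 0.25, limma) passed it. With slide row as a block 1 *Lims1* probe did (-0.54, adjusted p = 0.50, limma). Over 1 probe for each of the 11 genes, differences ran from -0.22 (*Parva*) to 0.22 (*Tln2*), and all 11 of the 95% intervals lay within a 2-fold change in either direction, the widest bounds being -0.80 (*Parva*) and 0.68 (*Tln2*). *Tln1*, the talin of most cells, read 4.61, 4.84 and 4.79 in NEXN-WT and 4.79, 4.62 and 4.54 in NEXN-S437E hearts (-0.10 ± 0.15, 95% interval -0.44 to 0.25). *Tln2*, the talin that prevails in adult heart muscle, read 0.23, 0.59 and 0.29 against 0.21, 0.81 and 0.73 (0.22 ± 0.20, 95% interval -0.25 to 0.68). The ranges of the groups overlapped for both talins.

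*Vcl* (vinculin) read 2.98, 2.79 and 2.88 in NEXN-WT and 2.92, 2.76 and 2.96 in NEXN-S437E hearts (-0.01 ± 0.14), and its dimmer probe differed by 0.39 ± 0.32, with a 95% interval of -0.34 to 1.12 that runs past 2-fold. This difference rests on NEXN-WT 3, which read -3.98 against -2.78 and -2.77 in the rest of its group, and was -0.01 without it. *Fermt2*, kindlin-2 of the heart, differed by 0.14 ± 0.19 (95% interval -0.29 to 0.57). *Ilk* read 3.41, 3.54 and 3.80 against 3.71, 3.66 and 3.58 (0.06 ± 0.15, 95% interval -0.29 to 0.42). The parvins *Parva* and *Parvb* and the PINCH gene *Lims1* differed by -0.22 to 0.01 over 6 probes. *Ptk2* (focal adhesion kinase) differed by -0.08 ± 0.16 and 0.14 ± 0.22 on its 2 tested probes, *Pxn* (paxillin) by -0.04 ± 0.18 and *Zyx* by -0.19 ± 0.15 and -0.06 ± 0.20.

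Around this core, 6 of 32 tested adaptor genes fell (18.8%, against 6.7% of all tested probes) and 1 rose (3.12%, against 10.5%). *Fermt3* (kindlin-3), *Lpxn* (leupaxin) and *Ptk2b* (PYK2) are relatives of the kindlin, paxillin and focal adhesion kinase above, and *Apbb1ip* (RIAM) is a partner of talin. *Ptk2b* differed by -0.60 ± 0.14 (adjusted p = 0.13, limma), *Apbb1ip* by -0.60 ± 0.15 (adjusted p = 0.15, limma), *Lpxn* by -0.59 ± 0.20 (adjusted p = 0.21, limma) and *Fermt3* by -0.56 ± 0.18 (adjusted p = 0.21, limma). All of these had no overlap between the groups, and all passed without NEXN-WT 1. The difference from *Ptk2*, *Pxn* and *Fermt2* was not tested. *Actn1*, the alpha-actinin of non-muscle cells, differed by -0.75 ± 0.22 (adjusted p = 0.18, limma), and *Lpp*, a relative of zyxin, by -0.36 ± 0.15 (adjusted p = 0.28, limma). Without NEXN-WT 1 *Lpp* no longer passed, which left 5 that fell. *Git2*, which binds paxillin, was the gene that rose (0.44 ± 0.15, adjusted p = 0.22, limma).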

How the data were processed

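RNA of 6 hearts (3 a group) was measured on 1-colour Agilent arrays. The authors extracted the scans with Agilent Feature Extraction 10.7.1.1, per the submitters' processing notes, and the deposited array files hold background-subtracted intensities on a linear scale. The deposited table of the series adds the authors' normalized log2 values, whose 6 columns have identical distributions; the method is not given in the sources used here. It also pairs probes with gene symbols, mm9 positions and sequences, which were used as given, and all 38 member symbols are in the RefSeq list. No mm9 genome was used, so probes were not placed in exons or UTRs.

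Here, log2 processed signals were centred on each array's 75th percentile, control and outlier spots were left out, and spots of a probe were averaged. A probe was kept (22998 in all) if every array of 1 group or the other read it well above background. The test was limma 3.58.1 (eBayes after lmFit, in R 4.3.3, reading with the data.table package of version 1.17.8), all samples in 1 fit without covariates and p-values adjusted over all tested probes. The fit was tested on simulated data. Single within-array differences had an exact permutation test. Linear sums add the antilog values of a list's tested and untested markers, 1 probe per gene. The brightest probe can thus make up most of a sum, as *H2-Ab1*, *Csf3r*, *Pf4* and *Dcn* did for dendritic cells, neutrophils, platelets and fibroblasts. Bounds ("at least") set the brighter mean against the detection limit of each array. A gene was represented by its tested probe of highest mean; named genes were those past the study's threshold or an unadjusted p of 0.05, up to 12 a direction, 12 chains and core genes regardless of result, and further probes of these that differed in direction or call. Each array is 1 mouse heart as far as the study states it; the number of arrays limits the precision. Same-numbered samples did not deviate together (r from -0.18 to -0.03), so numbers did not pair samples. The study's own fold change and p columns were not used. The members and lists were chosen with earlier results of these data known. Figures were made in matplotlib 3.10.9 (Python 3.11.15, pandas 2.3.3, numpy 2.4.6).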

Additional observations from a re-analysis of the deposited data

How the results depend on the processing

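No member passed an adjusted p of 0.05 in any setting run (limma, and the methods' t-test after Benjamini-Hochberg). The number of members lower at an unadjusted p under 0.05 was 9 and stayed between 6 and 10 (8.79% to 20% of members, where 2.78% to 9.94% of all probes in these settings were). The probes behind this number changed. After normexp correction only *Itga11*, *Itgb3*, *Itgb5* and *Itgb7* remained of the main ones, and probes of *Itga9* (the brighter), *Itgav*, *Itgb1*, *Tln1* and *Zyx* entered. With slide row as a block only the dimmer *Itga9* probe, *Itgal* and *Itgb7* remained, and probes of *Itga1*, *Itga10*, *Itgae* and *Lims1* entered. The number higher, 2, fell to 0 with quantile normalization, the authors' normalized values and the slide row block, and to 1 with the percentile over detected probes, the replicate block and 1 probe per gene, was 5 of 91 (5.49%) without a filter on dim probes, and was 0 (without NEXN-S437E 2 or 3) to 3 (without NEXN-WT 2) with each array left out, while 4.56% to 13.8% of all probes were higher in these settings (7.47% with quantile normalization and 10.2% without a filter). Past the study's threshold 3 members were lower, 1 after normexp correction, 2 with detection on all 6 arrays, 4 with slide row as a block (*Itga1*, *Itga10*, *Itgae* and *Itgb7*, of which *Itgb7* alone is among the 3), 8 lower and 1 higher at 1.5-fold, 1 higher (an undetected *Itgb4* probe) without a filter, and 3 to 5 lower with each array left out (5 without NEXN-S437E 2). The methods' t-test called 2 lower. With the replicate block, 3 were called lower, as without it, and no sample correlated best with the sample of its own number.

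Role medians moved by more than the spread between arrays as follows, and the cause was not tested except where dim probes enter or leave. The beta1 probes went from -0.09 to -0.31 (quantile), -0.33 (authors' values) and -0.26 (normexp). After normexp correction the alpha4 and alpha9 chains were at -0.20, the leukocyte chains at -0.044 and the RGD chains at -0.13, and *Itgal* turned to 0.12. Without a filter these were -0.12, 0.32 and 0.092, with undetected probes included, and with detection on all 6 arrays the leukocyte chains were at -0.091. The collagen-binding chains went from -0.38 to -1.25 with slide row as a block, and to 0.10 after normexp correction, which turned their sign. With each array left out the leukocyte chains ranged from -0.96 to -0.49 (the latter without NEXN-S437E 1). The percentile over detected probes shifted the median of all tested probes by -0.11. Over 792 refits of the tested member probes, 41 lost and 21 gained an unadjusted p under 0.05, and 62 changed sign, 1 of them of a probe called in the main processing. At most 47.8% of spots were above background, so dim chains (*Itgax*, *Itgal*, *Itgae*, *Itgb8* and *Itga10*) are the least certain.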
